A study of Mus musculus with 48 samples.

Results

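Deletion of Ikzf1 was followed in pro-B cells that cannot rearrange their antigen receptor genes because they lack Rag2. The comparison holds 4 RNA-sequencing libraries of the 48 samples in the series, 2 for each genotype, all from C57BL/6 mice. Control cells were Ikzf1(fl/+) Cd79a(Cre/+) Rag2(-/-). Deleted cells were Ikzf1(fl/-) Cd79a(Cre/+) Rag2(-/-). Cre was therefore present in both groups, driven from the B-lineage gene Cd79a, and the controls kept 1 Ikzf1 allele that Cre does not remove. The genes described are the 10476 of 21025 gene models that reached 1 RPKM (a read count scaled to gene length and to library depth) in at least 2 of the 4 libraries. Age, and the sorting of the cells, are not given in the sources used here.

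Ikzf1 encodes Ikaros, a zinc-finger DNA-binding protein of lymphoid cells that can both repress and activate genes and that works with the NuRD chromatin-remodelling complex. At the pro-B stage developing B cells depend on interleukin 7 and on contact with bone marrow stroma, and they normally leave it once the pre-B cell receptor is assembled. Cells without Rag2 make no antigen receptor and stop at this stage.

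The 4 libraries had an implied depth of 26.9 to 33.9 M reads, estimated from the step size of low RPKM values. Pearson's r of log2 values across genes was 0.979 between the controls, 0.988 between the deleted libraries and 0.923 to 0.934 between a control and a deleted library. The labels do not say whether the 2 libraries of a group came from separate animals. The p-values rest on the spread between libraries within groups, shared over the 14 pro-B and pre-B libraries of the fit. That spread may be technical in part. The Y-linked gene Eif2s3y stood at 0 and 10.4 RPKM in the controls and at 2.91 and 0.0332 RPKM in the deleted libraries, while Xist stood at 1.86, 0.0187, 0.00661 and 5.41 RPKM. Each group thus held 1 library with Y-linked transcripts and 1 with Xist. The 2 libraries of a group therefore differ in sex and cannot come from the same animal. Defining markers of the labelled cell type were high in every library. Cd79a ranged from 418 to 605 RPKM and the surrogate light chain gene Igll1 from 1866 to 2547 RPKM over the 4 libraries. The markers Cd3d, Cd3e and Cd3g of T cells, Elane, Mpo and S100a8 of neutrophils and Alas2 of red cell precursors did not reach the filter. Some markers of other cell types did rise from low levels. Both neutrophil genes that passed, through the deleted libraries alone, rose, Prtn3 from 0.206 and 0.153 to 7.17 and 11.1 RPKM and Ctsg from 0.0666 and 0 to 1.85 and 2.41 RPKM. The platelet gene Pf4 went from 0.170 and 0 to 16.7 and 7.50 RPKM and Nfe2, an erythroid and megakaryocyte factor, from 5.70 and 4.70 to 33.9 and 31.9 RPKM. They were the only 2 rises among 5 erythroid and megakaryocyte genes that passed, and 1 fell. The median log2 difference of these 5 was -0.66. Summed, the list came to 144 and 298 RPKM before deletion and to 108 and 116 RPKM after it. Of 11 monocyte genes that passed 4 rose, Cebpa, Cd68, Csf1r and Mrc1, none of them above 7.36 RPKM. The calls of Ctsg without the second deleted library (1.47), Csf1r without the second control (0.92) or the first deleted library (1.33), and Mrc1 after quantile normalization (0.60) were lost. The part of such cells in the other results was not tested.

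Ikzf1 itself stood at 62.3 and 56.2 RPKM in the controls and at 39.9 and 36.7 RPKM in the deleted libraries, a fall of the whole-gene value (log2 difference -0.62, SE 0.14, limma adjusted p = 0.00742) that cannot resolve the deleted exon. Without the second deleted library the value was -0.56 and was no longer called, and in a fit of all 30 RNA libraries of the series the adjusted p was 0.173.

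Among the 10476 genes tested, 17.5% rose and 8.04% fell at a limma adjusted p under 0.05. These 1836 and 842 genes are described relative to a median gene at 0.06 on the log2(RPKM + 1) scale. That scale is used for every log2 difference given here, always as deleted minus control, and it understates the change of low genes. The rise was much the deeper of the 2 directions. More than 1 log2 unit separated the groups in 806 genes that rose and 185 that fell, and more than 4 units in 29 and 2. Genes that rose were mostly low before deletion, with a median control mean of 4.62 RPKM that went to 12.3 RPKM, and 400 of them had a control mean under 1 RPKM. Genes that fell were abundant, with a median of 52.1 RPKM in controls and 31.0 RPKM after deletion. Only through the deleted libraries did 447 genes reach the filter, 358 of them among the genes that rose, and these had to differ. Rescaling moved the balance. After quantile normalization the median gene shifted by -0.13 and 55.7% of called genes were higher, and after median-ratio scaling it shifted by -0.11 and 51.3% were higher, against 68.6% here. Without the second deleted library 1205 genes rose and 408 fell, and without the first 1234 rose and 459 fell.

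**Figure D1:**
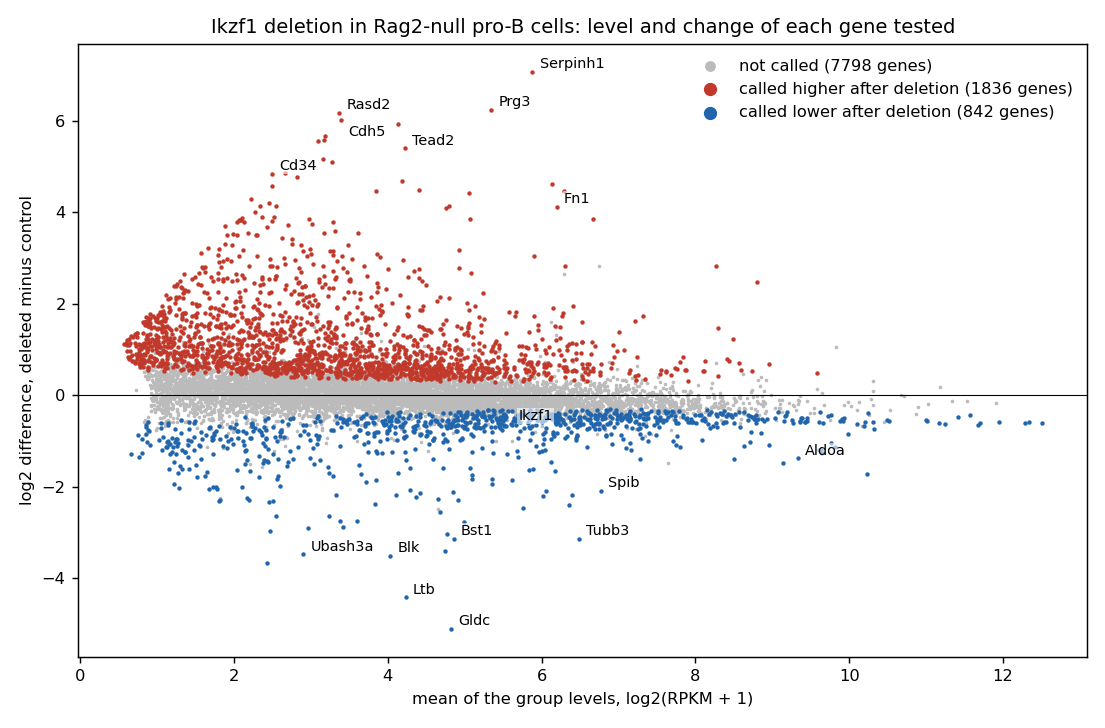
Each point is 1 of 10476 genes, with the mean of the 2 group levels on the horizontal axis (log2 of RPKM + 1) and the log2 difference, deleted minus control, on the vertical axis. The 1836 genes called higher spread up to Serpinh1 at 7.07, most at low levels, while the 842 called lower lie mainly within 1 log2 unit of 0 and reach the highest levels.

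Ikaros binds DNA at sites with the core letters TGGGAA, so the start regions of leading genes are shown before their values. RefSeq promoters (250 bases before to 50 after a start, GRCm38.p6) were matched for 8381 of the genes tested. Of the 15 genes with the largest rise, 11 had a listed promoter and 2 of these held the core on either strand in any listed start. Of the 15 with the largest fall, 9 had one and 4 held the core. Both of the former and the first 2 of the latter are printed 5′ to 3′ on the gene's own strand, with the core in capitals, here always as its reverse complement TTCCCA.
Tead2 promoter, GRCm38.p6 chr7:45215542-45215841, plus strand: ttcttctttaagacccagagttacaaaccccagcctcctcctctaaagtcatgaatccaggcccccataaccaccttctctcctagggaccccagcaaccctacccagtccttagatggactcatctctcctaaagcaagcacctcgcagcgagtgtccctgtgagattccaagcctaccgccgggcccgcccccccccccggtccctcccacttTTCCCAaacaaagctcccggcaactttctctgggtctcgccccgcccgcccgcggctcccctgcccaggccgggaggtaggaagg
Pianp promoter, GRCm38.p6 chr6:124996470-124996769, plus strand: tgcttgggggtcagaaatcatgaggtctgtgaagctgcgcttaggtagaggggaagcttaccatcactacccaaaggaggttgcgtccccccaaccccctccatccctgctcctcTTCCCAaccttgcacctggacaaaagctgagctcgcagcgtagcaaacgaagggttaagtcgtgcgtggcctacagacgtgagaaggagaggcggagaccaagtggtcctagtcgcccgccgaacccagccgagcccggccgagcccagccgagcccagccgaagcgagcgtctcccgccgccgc
Gldc promoter, GRCm38.p6 chr19:30175392-30175691, minus strand: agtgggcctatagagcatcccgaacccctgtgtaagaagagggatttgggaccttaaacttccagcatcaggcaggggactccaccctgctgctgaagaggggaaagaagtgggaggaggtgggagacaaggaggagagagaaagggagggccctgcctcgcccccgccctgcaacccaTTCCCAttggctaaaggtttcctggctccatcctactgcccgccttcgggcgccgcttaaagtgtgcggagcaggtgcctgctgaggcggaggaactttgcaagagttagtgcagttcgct
Ubash3a promoter, GRCm38.p6 chr17:31207816-31208115, plus strand: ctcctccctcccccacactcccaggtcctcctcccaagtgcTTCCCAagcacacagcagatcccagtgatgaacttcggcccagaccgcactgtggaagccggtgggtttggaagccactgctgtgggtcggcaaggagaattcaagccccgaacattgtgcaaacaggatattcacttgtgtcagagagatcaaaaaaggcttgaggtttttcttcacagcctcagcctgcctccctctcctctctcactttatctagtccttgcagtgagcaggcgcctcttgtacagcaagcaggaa
The core starts at base 216 of the window in Tead2, 116 in Pianp, 180 in Gldc and 42 in Ubash3a. Pianp has 3 listed starts, and only the printed one holds the core. Over all genes tested, the share of listed starts with the core was 25.4% for genes that rose, 22.8% for genes that fell and 22.3% for genes not called, against 25.6% of all listed promoters. A core match is a description of these letters and not evidence of binding. The deposited values use the mm9 build, and the coordinates of the printed promoters belong to GRCm38.p6.

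Genes that were low in the controls led the rise. Serpinh1, the collagen chaperone of the endoplasmic reticulum, stood at 3.38 and 4.65 RPKM in the controls and at 873 and 508 RPKM in the deleted libraries. The means differed 172-fold, and the log2 difference was 7.07 (SE 0.39, limma adjusted p = 9.47e-07). Rasd2, a small GTPase, went from 0.191 and 0.225 RPKM to 96.1 and 77.7 RPKM, a 418-fold difference of means (log2 difference 6.18, SE 0.17, limma adjusted p = 4.61e-10). Cdh5, the cadherin of endothelial junctions, went from 0.31 and 0.251 to 105 and 63.4 RPKM. In none of these did a deleted library come near a control, as the plot of the leading genes by library shows. Tead2, a DNA-binding partner of the coactivator YAP, went from 2.10 and 1.66 RPKM to 133 and 109 RPKM. Cd34, a surface sialomucin of haematopoietic progenitors and endothelium, was at 0.0127 and 0.0425 RPKM in controls, and at 39.8 and 20.1 RPKM after deletion. Prg3, which encodes a granule protein of eosinophils, went from 6.04 and 1.83 RPKM to 335 and 335 RPKM. The deleted libraries differed from each other by more for Igfbp2, an insulin-like growth factor binding protein, at 34.5 and 86.1 RPKM, and for Stum, at 19.0 and 50.8 RPKM, although both stood under 0.3 RPKM in the controls. The other genes of the leading 15 were Pianp, Cdh22, Mmp15, Chst1, Tgm2, Sez6l2 and Nxph4, with log2 differences from 4.68 to 5.93.

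**Figure D2:**
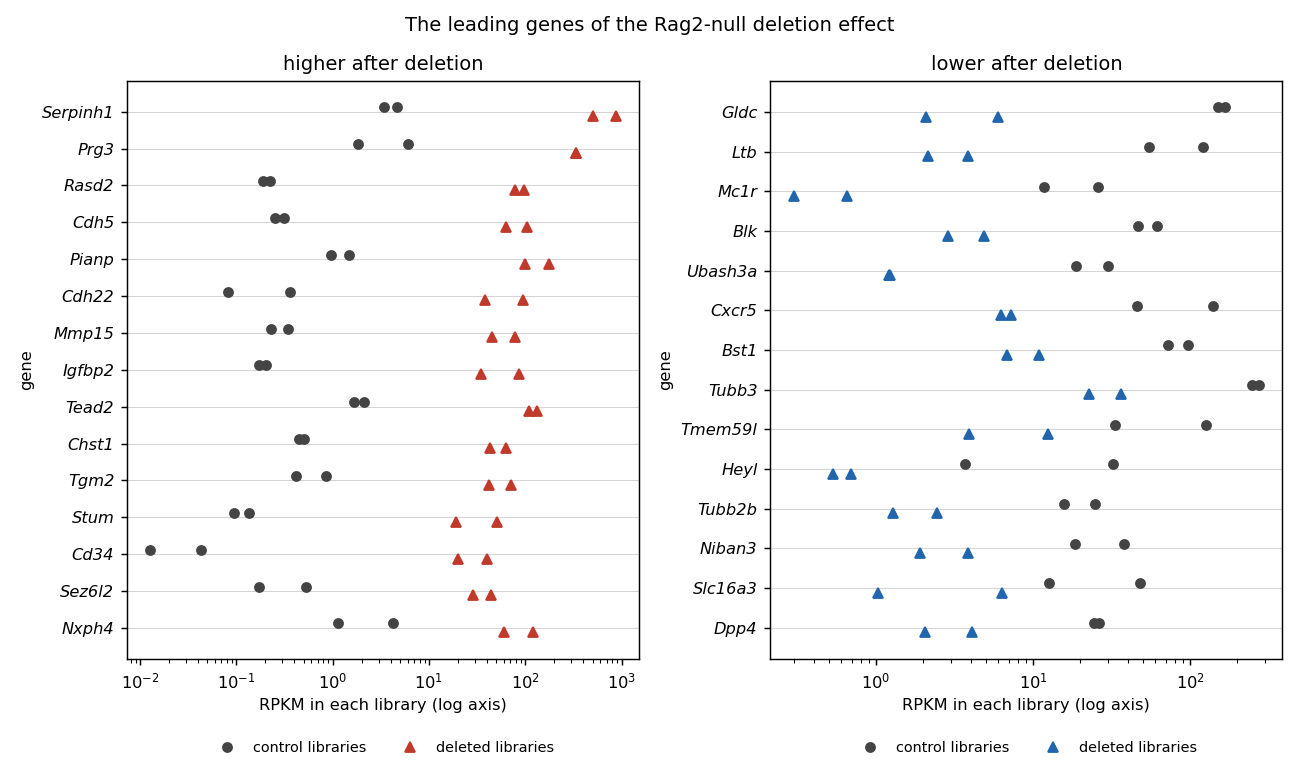
RPKM of 15 leading genes that rose and 14 that fell, on a log axis, with circles for the 2 control libraries and triangles for the 2 deleted libraries. The groups do not overlap in any of the 29 genes, which were chosen in part for that, and the higher-after-deletion genes start at or below 4.65 RPKM in all but the Prg3 control at 6.04.

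A stricter description of silence gave 46 genes under 0.5 RPKM in both controls and at 5 RPKM or more in both deleted libraries. Their median deleted mean was 13.8 RPKM. In the opposite direction no gene met the mirrored rule, and 3 went from at least 5 RPKM in both controls to under 1 in both deleted libraries, Mc1r, Rd3l and Rarres1. The 46 include Nrp1, the semaphorin and VEGF co-receptor, at 0.096 and 0.144 RPKM before and 16.7 and 13.3 RPKM after deletion. They include Ephb4, an ephrin receptor, at 0.482 and 0.425 RPKM in controls and 15.7 and 15.1 RPKM after deletion. They also include Itga9, S1pr3, Nectin2, Tgfb2, Mmp15 and the scaffold genes Sorbs3 and Tns2. Nrgn, a calmodulin-binding protein of neurons, went from 0.129 and 0.115 to 14.8 and 16.2 RPKM. Ddr1, a collagen receptor kinase, went from 0.333 and 0.497 to 9.07 and 5.82 RPKM. Of the 46, 42 also rose on deletion in Rag2-intact pro-B cells and 41 in pro-B cells sorted as c-Kit-high, while Ddr1 was called in neither. The genes singled out from this set were chosen after their values were seen.

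Adhesion genes rose broadly. Of 23 integrin subunit genes, 13 passed the filter, 2 of them only through the deleted libraries, and 8 rose and 2 fell, with a median log2 difference of 1.00 against 0.06 over all genes. Itgal, the alpha subunit of the lymphocyte integrin LFA-1, stood at 7.47 and 13.3 RPKM in the controls and at 46.2 and 37.0 RPKM after deletion (log2 difference 1.95, SE 0.23, limma adjusted p = 5.89e-05). Its partner Itgb2 went the other way, from 20.2 and 23.5 RPKM to 6.07 and 5.74 RPKM. Itga5, which with Itgb1 makes the main fibronectin receptor, went from 17.6 and 9.96 RPKM to 36.8 and 36.1 RPKM. Itgb1, named here after its values were seen, went from 44.0 and 40.2 to 84.8 and 86.1 RPKM. Itga6, a laminin receptor subunit, went from 6.42 and 5.15 to 18.9 and 18.9 RPKM, and Itga3, another, from 0.804 and 0.130 to 17.8 and 13.1 RPKM. Itga4, part of the VLA-4 receptor for the stromal ligand VCAM-1, fell from 8.51 and 8.65 RPKM to 4.46 and 5.86 RPKM. Only 1 integrin gene fell in the fit of the 4 Rag2-null libraries alone, and 1 in that of all 30 RNA libraries.

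Genes for proteins that tie integrins to the cytoskeleton also rose. Of 33 focal adhesion genes 25 passed, 4 only through the deleted libraries, and 17 rose and 1 fell (median log2 difference 0.69). Zyx, which encodes zyxin, went from 18.8 and 13.5 RPKM to 105 and 60.1 RPKM (log2 difference 2.25, SE 0.29, limma adjusted p = 0.000193). Actn1, an actin cross-linker, went from 12.9 and 8.32 RPKM to 74.1 and 81.6 RPKM. Vcl, for vinculin, stood at 13.1 and 11.9 RPKM before and 32.7 and 38.6 RPKM after deletion. Ptk2, focal adhesion kinase, was close to silent in the controls at 0.661 and 2.22 RPKM and reached 12.9 and 13.2 RPKM. Its relative Ptk2b, the only member of the list that fell, went from 37.3 and 39.6 RPKM to 27.7 and 29.5 RPKM. In the fit of the 4 Rag2-null libraries alone 11 of the 25 rose and 0 fell, and in that of all 30 RNA libraries 14 and 0. Of the members not called, Ilk stood at 61.1 to 69.5 RPKM and Vasp at 119 to 145 RPKM over the 4 libraries. Junction genes gave 8 rises and no fall among 10 that passed of 25 listed, 3 only through the deleted libraries. Beside Cdh5 they include the catenin Ctnna1, from 49.7 and 38.1 to 120 and 130 RPKM, and Nectin2, from 0.291 and 0.259 to 9.26 and 7.95 RPKM. The core adherens component Ctnnb1 stood between 117 and 123 RPKM in the 4 libraries.

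**Figure D3:**
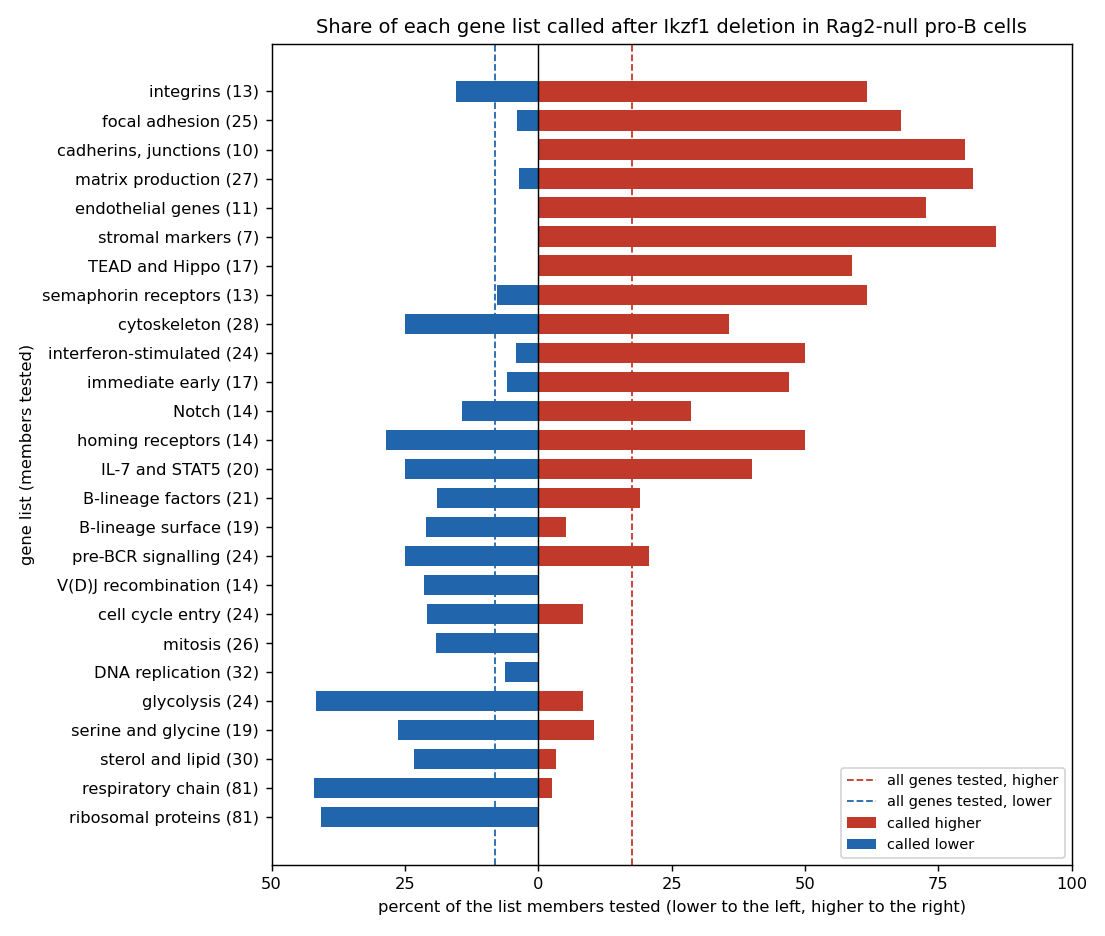
Share of the tested members of each gene list that were called higher (bars to the right) or lower (bars to the left) after deletion, with the number tested in brackets and dashed lines at the shares over all genes, 17.5% and 8.04%. Adhesion, matrix and TEAD lists extend far to the right, and glycolysis, respiratory chain and ribosomal protein lists to the left.

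Matrix and matrix-processing genes rose in number and size. Of 32 listed, 27 passed, 7 only through the deleted libraries, and 22 rose and 1 fell (median log2 difference 1.27). After quantile normalization 17 rose, and 17 rose with 0.1 RPKM added before the log in place of 1. Fn1, fibronectin, stood at 16.1 and 17.0 RPKM in the controls and at 327 and 285 RPKM after deletion (log2 difference 4.12, SE 0.21, limma adjusted p = 1.22e-07). Timp3, an inhibitor of matrix metalloproteinases, went from 1.38 and 0.771 to 15.9 and 11.6 RPKM. The membrane metalloproteinase gene Mmp14 went from 2.38 and 3.24 to 25.5 and 22.5 RPKM, and the secreted Mmp2 from 1.01 and 1.29 to 14.4 and 7.34 RPKM. Collagen I chains stayed far below Serpinh1: Col1a1 stood at 1.76 and 3.62 RPKM before and 16.5 and 13.4 RPKM after deletion. Its call did not hold without the first control library (log2 difference 1.78) or without either deleted library (2.01 and 2.30).

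Markers of bone marrow stroma moved with these lists. Of 15 stromal genes 7 passed, 1 only through the deleted libraries, and 6 rose. Without the first control or the first deleted library 3 rose. Summed, the 15 listed genes came to 140 and 279 RPKM before deletion and to 454 and 386 RPKM after it. Most of this rise was that of Cd248 alone. Cxcl12, the chemokine that holds B-cell precursors in the marrow, stood at 2.23 and 5.20 RPKM before and 34.3 and 17.6 RPKM after deletion. Cd248, a surface protein of pericytes and fibroblasts, went from 27.0 and 30.5 to 239 and 182 RPKM, and it also rose in both other deletions. The calls of Bgn and Col1a2 were lost when libraries were left out, Bgn without any 1 of the 4 (log2 difference 1.33 to 1.97) and Col1a2 without the first control (1.62) or the first deleted library (1.70). Lepr, Pdgfra, Vcam1, Dcn, Lum, Postn, Ibsp and Col3a1 did not reach the filter. Cxcl12, Col1a2, Pdgfrb and Bgn fell in Rag2-intact cells, with Cxcl12 there at 31.2 and 45.3 RPKM in controls and 9.89 and 9.60 RPKM after deletion. In c-Kit-high cells Cxcl12 stood between 0.276 and 0.522 RPKM in all 4 libraries. The log2 differences of Serpinh1 and Cdh5 there were 6.12 and 5.99. In a bulk library more cells of a type and more RNA per cell cannot be told apart. Which part of the matrix rise goes with the stromal markers was not tested.

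**Figure D4:**
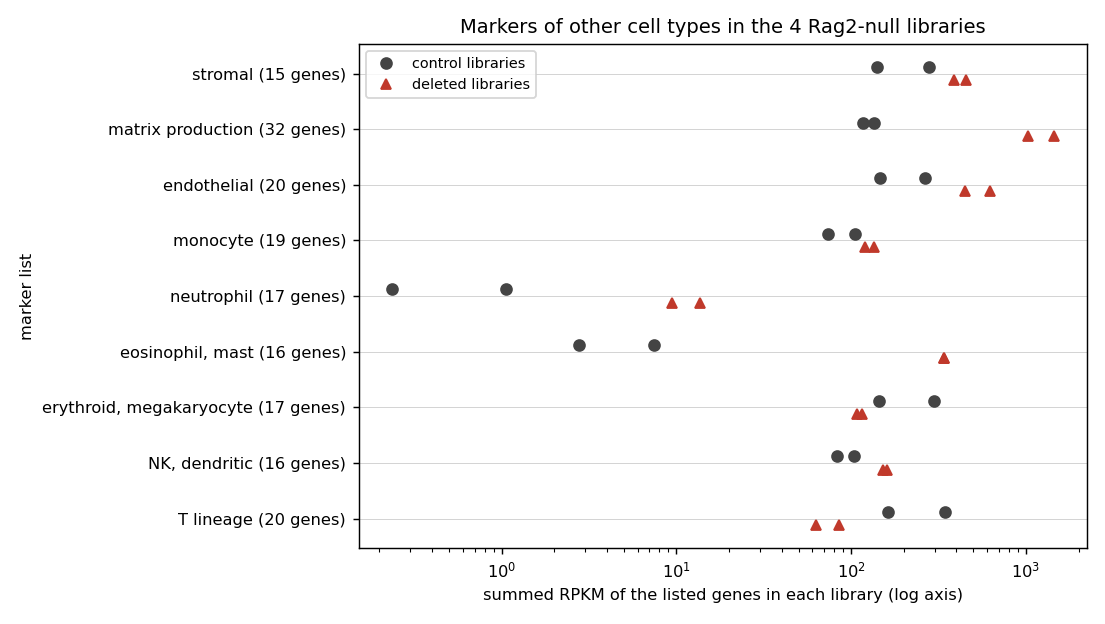
Summed RPKM of marker genes of other cell types in each library (log axis), circles for the 2 controls and triangles for the 2 deleted libraries, with the number of listed genes in brackets. Stromal and matrix sums are higher in both deleted libraries, mostly through Cd248 in the former and through Serpinh1 and Fn1 in the latter. Neutrophil markers go from at most 1.06 RPKM in sum to 9.38 and 13.7 RPKM. The eosinophil and mast cell sum of the deleted libraries is almost all Prg3.

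Endothelial genes gave 8 rises and no fall among 11 that passed of 20 listed, 5 only through the deleted libraries. Eng, the TGF-beta co-receptor endoglin, went from 110 and 61.0 RPKM to 287 and 223 RPKM. Tie1, an endothelial receptor kinase, went from 0.0172 and 0 to 3.63 and 1.09 RPKM. Egfl7, a secreted vascular factor, stood at 36.6 and 18.1 RPKM before and 78.2 and 46.0 RPKM after deletion. Plvap, of endothelial pores, stood at 1.36 and 0.313 RPKM in controls and at 2.61 and 6.67 RPKM in deleted libraries. Without the second control library neither was called (0.70 and 1.16), nor was Egfl7 without the first deleted library (0.81) or Plvap without the second (1.03). The endothelial defining markers Tek, Cldn5, Vwf and Emcn stayed below the filter, and Pecam1, which B cells also express, stood at 12 to 20.1 RPKM without a call. Without the second control library 5 of the 11 rose.

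TEAD proteins bind DNA in the transcription complex that the Hippo kinases restrain. Of 25 genes of this pathway 17 passed, 3 only through the deleted libraries, and 10 rose with no fall (median log2 difference 0.45). Without the second control library 6 rose. Tead4 went from 0.0109 and 0.0121 RPKM to 8.75 and 6.78 RPKM. Yap1, the coactivator, went from 1.35 and 4.34 to 12.9 and 17.4 RPKM (log2 difference 2.18, SE 0.37, limma adjusted p = 0.00107). Axl, a receptor kinase, went from 1.62 and 1.61 to 25.1 and 21.1 RPKM, and Ajuba, a junctional scaffold, from 9.81 and 4.79 to 29.1 and 24.6 RPKM. The kinase gene Stk4 was not called, standing at 75.6 to 87.9 RPKM in controls and 65.2 to 77.1 RPKM in deleted libraries. Tead1, Tead3, Wwtr1, Ccn1 and Ccn2 did not reach the filter. Genes of semaphorins and their receptors gave 8 rises and 1 fall among 13 that passed of 27, 2 only through the deleted libraries. Plxnb2 went from 10.3 and 6.26 to 57.0 and 43.7 RPKM, Plxna1 from 13.0 and 21.1 to 69.4 and 64.6 RPKM, and Sema4a fell from 32.0 and 26.0 to 6.92 and 14.7 RPKM.

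Receptors that position lymphocytes changed in both directions. Of 23 homing genes 14 passed, 3 only through the deleted libraries, and 7 rose and 4 fell, against 17.5% and 8.04% of all genes. Cxcr5, the receptor for the follicular chemokine CXCL13, stood at 139 and 45.9 RPKM in the controls and at 6.24 and 7.24 RPKM after deletion (log2 difference -3.39, SE 0.41, limma adjusted p = 0.000171). Cxcr3, a receptor for interferon-induced chemokines, went from 3.58 and 0.832 to 37.9 and 16.2 RPKM. S1pr1, which lets lymphocytes exit into blood, went from 2.79 and 1.95 to 19.2 and 11 RPKM, and S1pr3 from 0.463 and 0.423 to 12.8 and 9.29 RPKM. Icam1, the LFA-1 ligand, stood at 28.5 and 31.9 RPKM before and at 10.8 and 6.93 RPKM after deletion.

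The fall was led by genes of metabolism, B-cell signalling and the cell surface. Gldc, the glycine decarboxylase of the mitochondrial glycine cleavage system, stood at 167 and 150 RPKM in the controls and at 5.94 and 2.09 RPKM in the deleted libraries. The means differed 39.4-fold (log2 difference -5.10, SE 0.34, limma adjusted p = 7.18e-07). Ltb, lymphotoxin beta, fell from 121 and 55.0 RPKM to 3.83 and 2.13 RPKM. Blk, a Src-family kinase of the B lineage, fell from 61.4 and 46.5 RPKM to 2.88 and 4.89 RPKM. Ubash3a, a regulator of lymphocyte receptor signals, fell from 29.9 and 18.7 to 1.21 and 1.22 RPKM. Dpp4, a surface peptidase, fell from 26.3 and 24.6 to 2.06 and 4.10 RPKM. Tubb3 and Tubb2b, beta tubulins, fell from 275 and 246 to 36.5 and 22.8 RPKM and from 24.9 and 15.7 to 2.44 and 1.29 RPKM. Tubb3 and Mc1r, at 25.8 and 11.8 RPKM before and 0.654 and 0.298 RPKM after deletion, lie next to each other on chromosome 8 with 0 annotated genes between them in RefSeq. Controls themselves were apart for Tmem59l, at 127 and 33.1 RPKM, and for the Notch-family target Heyl, at 32.4 and 3.67 RPKM. Heyl was not called without either deleted library (-2.88 and -3.03), nor was Slc16a3, a lactate exporter, without the first (-1.83).

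Transcription factors of the B lineage changed in both directions. All 21 listed passed, and 4 rose and 4 fell, against 17.5% and 8.04% of all genes. Spib, an ETS factor of B cells, stood at 276 and 176 RPKM in the controls and at 53.4 and 49.5 RPKM after deletion (log2 difference -2.08, SE 0.20, limma adjusted p = 1.04e-05). Its relative Spi1, for PU.1, went from 46.2 and 54.5 to 78.1 and 85.1 RPKM. Tcf3, which encodes the E2A proteins, fell from 309 and 281 to 174 and 143 RPKM. Pax5, the commitment factor, stood at 81.0 and 70.6 RPKM before and 101 and 148 RPKM after deletion, a rise that was not called without the second deleted library (log2 difference 0.41). Ebf1 was at 104 and 67.7 RPKM in controls and 102 and 103 RPKM in deleted libraries, and Foxo1 at 42.9 and 38.8 against 57.4 and 45.8 RPKM, both without a call. Among other Ikaros family members Ikzf4 rose from 2.19 and 1.36 to 6.89 and 6.46 RPKM, while Ikzf3 differed more within groups, at 4.91, 22.0, 2.21 and 22.0 RPKM in control 1, control 2, deleted 1 and deleted 2.

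On the surface, Kit, the stem cell factor receptor, rose from 25.9 and 16.9 RPKM to 49.3 and 54.4 RPKM (log2 difference 1.27, SE 0.19, limma adjusted p = 0.000308). In a fit of all 30 RNA libraries its adjusted p was 0.188 and it was not called. Bst1, an ectoenzyme of B-cell precursors, fell from 96.5 and 72.4 to 6.84 and 10.9 RPKM, and Cd93 from 55.6 and 47.9 to 20.2 and 22.2 RPKM. Fcrla fell from 2.56 and 3.25 to 0.291 and 0.256 RPKM. Of 24 surface genes 19 passed, 1 rose and 4 fell, and without the first or the second deleted library 3 or 2 rose. The surrogate light chain gene Vpreb1 stood at 2005 and 1296 RPKM in controls and 1747 and 1500 RPKM after deletion. Dntt, the terminal transferase that adds bases at receptor joints, was at 546 and 163 RPKM in controls and 140 and 81.0 RPKM in deleted libraries, and was called without the second control library only (log2 difference -2.35) among the libraries left out. Of 14 recombination and surrogate light chain genes, all passed, none rose and 3 fell, Lig4, Xrcc6 and Vpreb2. Beside this list and that of surface genes, 17.5% of all genes tested rose and 8.04% fell. Xrcc6 was not called without the first control (-0.55) or the first deleted library (-0.76), nor Vpreb2 without the second deleted library (-0.63). Lig4, the ligase of end joining, fell from 8.10 and 5.52 to 2.44 and 2.71 RPKM.

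Genes of signalling below the pre-B cell receptor changed in both directions. Of 26 genes 24 passed, 5 rose and 6 fell, against 17.5% and 8.04% of all genes. Without the second control library 3 rose. Lck, a Src-family kinase better known in T cells, fell from 45.7 and 42.5 RPKM to 9.27 and 9.18 RPKM (log2 difference -2.14, SE 0.12, limma adjusted p = 1.33e-07). Dok3, an inhibitory adaptor, fell from 79.2 and 53.6 to 12.3 and 12.8 RPKM, and Pik3cd, a PI3 kinase catalytic subunit, from 182 and 168 to 97.4 and 94.3 RPKM. Vav2, an exchange factor, rose from 15.2 and 13.8 to 45.1 and 37.5 RPKM, and Malt1 rose from 2.77 and 2.88 to 7.34 and 8.88 RPKM. Blnk stood at 177 to 224 RPKM, Btk at 17.9 to 21.9 RPKM and Plcg2 at 151 to 173 RPKM over the 4 libraries, none of them called. T-lineage genes on their own list fell more than they rose, 4 against 1 of 7 that passed of 20. Thy1 stood at 196 and 79.7 RPKM before and 16.7 and 41.3 RPKM after deletion, and Lat at 88.5 and 32.4 before and 16.7 and 8.13 RPKM after. Tcf7, the exception, stood at 6.14 and 1.08 RPKM in controls and 11.4 and 18.2 RPKM after deletion, and was not called without the second deleted library (1.68). Cd5 was not called without the first (-0.97).

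Genes of the interleukin 7 receptor pathway and of STAT5 gave 8 rises and 5 falls, all 20 having passed, against 17.5% and 8.04% of all genes. Stat5a went from 17.7 and 14.7 to 25.9 and 36.9 RPKM and Bcl2, the survival factor, from 1.39 and 1.72 to 5.43 and 4.08 RPKM. Jak3, the kinase bound to the common gamma chain, fell from 43.6 and 40.8 to 22.5 and 20.4 RPKM, and the feedback inhibitor Socs1 from 16.4 and 29.9 to 8.29 and 8.98 RPKM. Il7r itself stood at 11.8 and 9.58 RPKM in controls and 8.63 and 23.1 RPKM in deleted libraries, and Il2rg at 35.8 to 44.9 RPKM over the 4 libraries, neither called. The D-type cyclins moved in different directions. Ccnd1 rose from 2.05 and 2.60 to 18.4 and 14.5 RPKM (log2 difference 2.39, SE 0.16, limma adjusted p = 5.78e-07), Ccnd3 fell from 494 and 711 to 288 and 296 RPKM, and Ccnd2 stood at 98.2 to 135 RPKM without a call. Cdkn1a and Cdkn2a, cell cycle inhibitors, were called lower. Their controls were far apart, Cdkn1a at 63.5 and 146 RPKM and Cdkn2a at 10.6 and 62.5 RPKM. Without the first deleted library neither was called (-1.20 and -2.02), nor was Cdkn2a without the second (-2.70). No gene of the mitosis and DNA replication lists rose. Of their 26 and 32 genes 5 and 2 fell, against 8.04% of all genes. Without control 2, deleted 1 or deleted 2 these falls numbered 2 and 0, 1 and 0, and 3 and 0, and without control 1 they numbered 5 and 7.

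**Figure D5:**
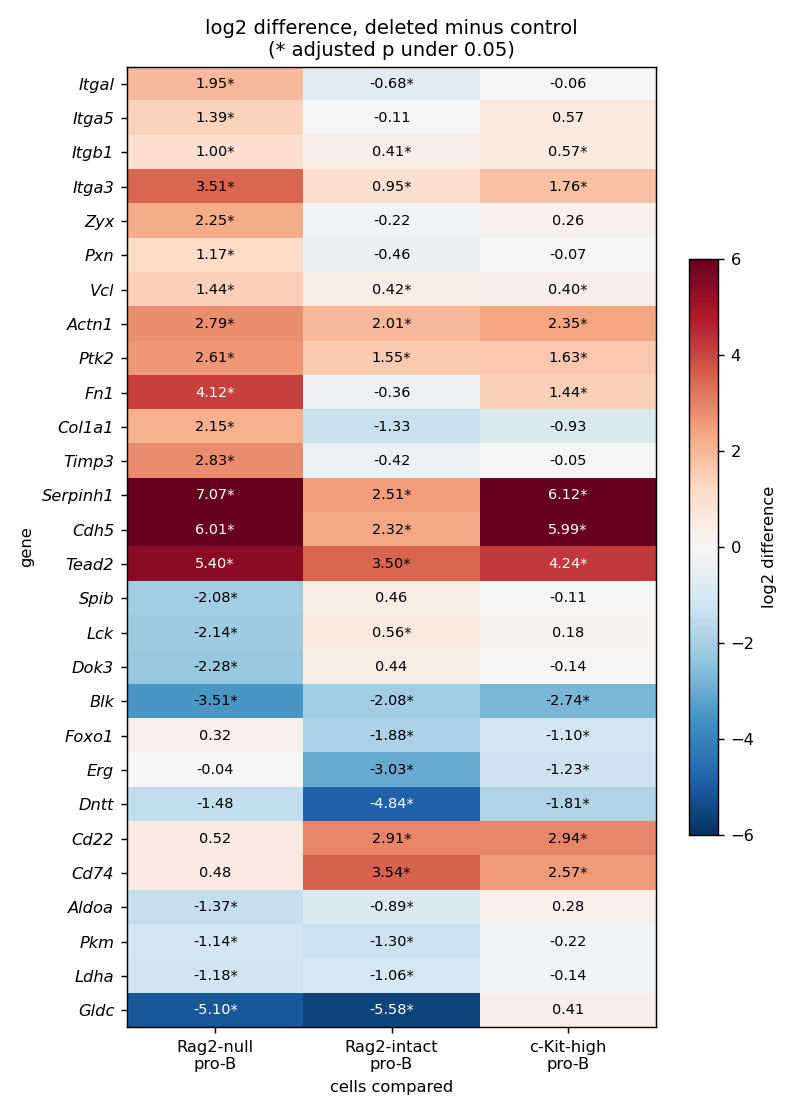
Log2 difference, deleted minus control, of 28 genes (rows) in Rag2-null, Rag2-intact and c-Kit-high pro-B cells (columns), coloured from -6 in blue to 6 in red, with an asterisk at a limma adjusted p under 0.05. Itgal, Zyx and Pxn are called higher in the first column only, Spib, Lck and Dok3 are called lower in the first column only, and Foxo1, Erg and Dntt are called lower in the other 2 columns only.

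Glycolytic enzymes were lower. Of 26 genes of glycolysis and its branches 24 passed, 10 fell and 2 rose (median log2 difference -0.37), against 8.04% and 17.5% of all genes. Aldoa, aldolase, stood at 1096 and 974 RPKM in the controls and at 382 and 416 RPKM after deletion (log2 difference -1.37, SE 0.12, limma adjusted p = 4.35e-06). Tpi1 fell from 676 and 498 to 200 and 245 RPKM, Pkm, pyruvate kinase, from 1549 and 1148 to 593 and 617 RPKM, and Ldha, lactate dehydrogenase, from 1135 and 1247 to 470 and 582 RPKM. The glucose transporter Slc2a1 fell from 52.8 and 45.3 to 27.0 and 28.9 RPKM. Eno3, the muscle enolase, rose from 5.54 and 5.30 to 16.7 and 57.9 RPKM. Without the first deleted library 6 of the 24 fell, and without the first control 4 rose. Gapdh stood at 1.86 to 3.91 RPKM, far below its neighbours in the pathway. It has near-identical copies in the genome and its value is uncertain, and how the counting treated reads shared with them was not tested. In serine and glycine metabolism 5 of 19 fell and 2 rose, led by Gldc, with Phgdh, the first enzyme of serine synthesis, at 98.1 and 107 RPKM before and 63.5 and 61.1 RPKM after deletion. Without the first control library 12 of the 19 fell, and without the second control or the first deleted library 3.

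Ribosomal protein genes (33 of 81 fell, 0 rose, median log2 difference -0.55) and respiratory chain subunits (34 of 81 fell, 2 rose, median -0.38) were lower. These genes have near-identical copies, so single members are uncertain. The share of all RPKM in ribosomal protein genes was 13.0% and 11.9% before deletion and 9.62% and 9.06% after it. After quantile normalization 9 and 4 of the 81 fell, and after median-ratio scaling 45 and 56. Without the second deleted library 12 and 9 fell, without the second control 25 and 11, without the first deleted library 22 and 15, and without the first control 17 and 26.

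Interferon-stimulated genes rose, 12 of 24 that passed of 30 listed, 2 only through the deleted libraries, against 1 fall (median log2 difference 0.68). Oas3, an antiviral 2′-5′ oligoadenylate synthetase, went from 0.885 and 1.09 to 7.65 and 6.71 RPKM (log2 difference 2.04, SE 0.26, limma adjusted p = 0.000108), and Ifi44 from 0.575 and 0.345 to 3.37 and 3.80 RPKM. Ifit1, Ifit3, Mx1 and Rsad2 did not reach the filter. Without the second control library 6 rose, and without the first deleted library 7. Of 21 Notch genes 14 passed, 1 only through the deleted libraries, and 4 rose and 2 fell, against 17.5% and 8.04% of all genes. Notch1 rose from 10.7 and 15.8 to 43.6 and 30.5 RPKM and Notch2 from 2.22 and 2.65 to 7.99 and 8.41 RPKM. The falls were those of Heyl (log2 difference -2.95) and Nrarp (-0.99), and Nrarp stood at -0.56 without the second deleted library. The Notch target Hes1 stood at 44.8 to 62.5 RPKM without a call. Among immediate early genes 8 of 17 rose and 1 fell, and without the first deleted library 5 rose, with Ier3 going from 2.67 and 1.47 to 14.8 and 16.3 RPKM and Dusp4, a MAP kinase phosphatase, from 0.248 and 1.21 to 11.1 and 6.54 RPKM. Jarid2, a Polycomb partner, rose from 9.31 and 6.93 to 18.8 and 25.8 RPKM. On its list of NuRD and Polycomb genes 25 of 26 passed, and 5 rose and 2 fell, against the same shares of all genes.

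The same deletion, with the same Cre, was made in total pro-B cells with intact Rag2, whose 4 libraries are separate from those above. Of the genes tested, 1450 rose there and 1050 fell. The lists overlap in 686 genes that rose, 37.4% of the Rag2-null list and 47.3% of the Rag2-intact list, and 343 that fell, 40.7% and 32.7%. Opposite calls were made in 149 genes that rose and 41 that fell without Rag2. The test of the difference between the effects called 939 genes (8.96%) as more positive in the Rag2-null cells and 459 (4.38%) as more negative. Rag2 genotype, the mix of cell stages and the preparation of the 2 sets of libraries cannot be told apart in this difference.

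Adhesion and B-lineage genes were among those whose effects differed between these settings. Itgal stood at 15.9 and 15 RPKM in Rag2-intact controls and 11.5 and 7.42 RPKM after deletion, a fall, and its effects differed by 2.63 (SE 0.33, limma adjusted p = 0.000258). Zyx was at 15.2 and 18.0 RPKM there before and 18.7 and 10.5 RPKM after deletion, and its effects differed by 2.47 (SE 0.41, limma adjusted p = 0.00229). For Fn1 the difference was 4.48, for Ccnd1 2.66, for Pxn 1.63 and for Notch1 1.44. Foxo1 fell in Rag2-intact cells from 41.4 and 43.0 to 12.9 and 8.98 RPKM and not here, with a difference of 2.20 (SE 0.21, limma adjusted p = 8.94e-05). Erg, an ETS factor of progenitors, fell there from 104 and 100 to 14.5 and 9.33 RPKM and stood here at 96.9 and 54.1 in controls and 80.4 and 61.7 RPKM after deletion, with a difference of 2.99. For Dntt it was 3.36. This was not called without the first deleted library (2.97), or without either Rag2-intact control (3.26 and 3.46) or the second Rag2-intact deleted library (3.09). Blnk and Ebf1 fell there and were not called here, with differences of 1.55 and 1.04.

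Other genes were called higher in Rag2-intact cells and not here. Cd22, a B-cell inhibitory receptor, rose there from 12.2 and 11.9 to 98.0 and 96.2 RPKM and stood here at 7.51, 7.89, 13.4 and 9.84 RPKM, a difference of -2.39. Its log2 difference here (0.52) was not called as fitted but was called higher in the fits of all 30 libraries and without the c-Kit-high libraries, and without the second deleted library (0.73). Cd74, the invariant chain of MHC class II, rose there from 33.6 and 42.5 to 429 and 472 RPKM, and the difference was -3.06. H2-Ab1, an MHC class II chain, fell here from 41.4 and 28.5 to 9.80 and 4.63 RPKM, and the difference was -3.11. Spib, Lck and Dok3, which fell here, gave differences of -2.54, -2.70 and -2.73. The 5 largest positive differences by the naming rule were those of Ccl2, Tmem119, Aqp1, Gas6 and Serpinh1, from 4.56 to 5.17, and the 5 largest negative ones those of Hvcn1, Rsph1, Cd72, Zc3h12d and Spp1, from -3.22 to -4.08. Of the negative ones, Spp1 was called higher here too (1.15), by less than in Rag2-intact cells (4.38), and Hvcn1 was not called here. Rsph1, Cd72 and Zc3h12d were called lower here and higher there. The calls of Rsph1 and Cd72 here were lost in some fits with 1 library left out. Of the positive ones, Ccl2, a monocyte chemokine, went here from 3.02 and 3.50 to 14.6 and 12.9 RPKM and fell in Rag2-intact cells by 3.38 on the log2 scale.

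The third setting, pro-B cells sorted as c-Kit-high, also has libraries of its own. There 1145 of the genes tested rose, 735 of them also here, 40.0% of the Rag2-null list and 64.2% of the c-Kit-high list, with 22 opposite calls. Of the 566 that fell there, 224 also fell here, 26.6% and 39.6% of the lists. The effect was more positive in the Rag2-null cells for 380 genes (3.63%) and more negative for 235 (2.24%). Without the first c-Kit-high deleted library these counts were 158 and 106, and without the first Rag2-null control 635 and 320. Aldoa, Pkm and Ldha, which fell here, were not called in the c-Kit-high cells. Aldoa stood at 81.5 and 96.4 RPKM in c-Kit-high controls and 113 and 104 RPKM after deletion, and its effects differed by -1.66 (SE 0.17, limma adjusted p = 0.000314). For Ldha the difference was -1.04 and for Pkm -0.91. Neither was called after quantile normalization (-0.60 and -0.38), nor was that of Pkm without the first c-Kit-high deleted library (-0.86). Gldc stood at no more than 0.819 RPKM in any c-Kit-high library, so its difference of -5.51 sets a fall here beside a gene that was already near silent there. Tubb3, at most 0.804 RPKM there, was in the same position. Mmp15, Prg3, Tgm2, Tgfb2 and Mmrn1 gave the largest positive differences by the naming rule, from 3.36 to 4.65. That of Tgm2 was not called with a pseudocount of 0.1 (2.90, limma adjusted p = 0.159).

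A set of 262 genes was more positive in the Rag2-null cells than in both other settings, 221 of them called up, and 114 were more negative than in both, 61 of them called down. Itgal, Zyx, Fn1, Pxn, Ccnd1, Notch1 and S1pr1 belong to the former and Spib, Lck, Dok3 and H2-Ab1 to the latter. The direct test against c-Kit-high cells gave 2.01 for Itgal, 1.99 for Zyx, 2.68 for Fn1, -1.98 for Spib and -2.32 for Lck. By contrast Serpinh1, Cdh5, Pianp and Tead2 rose in all 3 settings, and their Rag2-null effects were not called different from the c-Kit-high ones. Against Rag2-intact cells all 4 were called more positive, with differences of 4.56, 3.70, 2.35 and 1.90.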

How the data were processed

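Polyadenylated RNA was sequenced from single-end, strand-specific libraries, per the labels' protocols. The deposited values are RPKM per gene model, made by the authors with TopHat 1.4.1, HTSeq 0.5.3 and DESeq 1.8.3 on mm9, per the submitters' processing notes, which do not give the role of each tool. The deposited tables hold no counts. Implied depth was read from the step size of low RPKM values. Of 21025 gene models, 20662 were matched by accession, and 29 of the 10476 tested share a symbol with another.

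RPKM values of at least 1 in 2 of the 4 libraries were required, and log2(RPKM + 1) was fitted with limma 3.58.1 (R 4.3.3; intensity trend, robust moderation) on 14 pro-B and pre-B libraries in 7 groups of 2, with 7 residual degrees of freedom and Benjamini-Hochberg adjustment over all 10476 genes. The deletion effect and its differences from 2 other settings were contrasts of this fit, which was tested on simulated data. Tables and figures used Python 3.11.15, numpy 2.4.6, pandas 2.3.3 and matplotlib 3.10.9.

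Named genes are Ikzf1, up to 15 called genes each way by size of change (groups not overlapping, the higher one averaging 3 RPKM or more), up to 6 called members of each of 40 lists, and up to 5 each way per difference. Predicted genes and genes of microRNAs or small nucleolar RNAs were not named, and a few genes that the rule or lists took are not reported here. Members of the lists that were not called may also be given. Ptk2b, Itga4, Itgb1, Pxn, the genes silent before deletion and the further differences were chosen after their values were seen. The genes and lists were chosen with earlier results of these data known. Ribosomal protein and respiratory chain genes were taken by symbol prefix. Alternatives were another pseudocount (0.1), no filter and a filter at 3 RPKM, quantile and median-ratio scaling, other sets of libraries in the fit, plain moderation, and each library left out. ChIP-seq libraries were not analysed here.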

Additional observations from a re-analysis of the deposited data

Results flagged for a closer look

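The deletion effect in Rag2-null pro-B cells was set against that in each other setting by the test of the difference itself, a limma interaction term. Against Rag2-intact pro-B cells 939 genes were called more positive and 459 more negative, and against c-Kit-high pro-B cells 380 and 235. The values that follow are these differences of log2 effects, Rag2-null minus the other setting, for a part of the genes named in the text. Each is past an adjusted p of 0.05.

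Against Rag2-intact cells, the difference was positive for Ccl2 at 5.17, Tmem119 at 5.16, Aqp1 at 4.84, Gas6 at 4.56, Serpinh1 at 4.56, Fn1 at 4.48, Dntt at 3.36, Erg at 2.99, Ccnd1 at 2.66, Itgal at 2.63, Zyx at 2.47, Foxo1 at 2.20, S1pr1 at 1.89, Pxn at 1.63, Blnk at 1.55, Notch1 at 1.44 and Ebf1 at 1.04. It was negative for Hvcn1 at -4.08, Rsph1 at -3.68, Cd72 at -3.53, Zc3h12d at -3.38, Spp1 at -3.22, H2-Ab1 at -3.11, Cd74 at -3.06, Dok3 at -2.73, Lck at -2.70, Spib at -2.54 and Cd22 at -2.39.

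Against c-Kit-high cells, the difference was positive for Mmp15 at 4.65, Prg3 at 3.98, Tgm2 at 3.58, Tgfb2 at 3.47, Mmrn1 at 3.36, Fn1 at 2.68, Itgal at 2.01, Zyx at 1.99, S1pr1 at 1.98, Ccnd1 at 1.93, Pxn at 1.24, Blnk at 1.09, Notch1 at 1.00 and Ebf1 at 0.92. It was negative for Gldc at -5.51, Mc1r at -3.76, Thy1 at -3.46, Enpep at -3.14, H2-Ab1 at -2.83, Cd22 at -2.41, Lck at -2.32, Dok3 at -2.15, Cd74 at -2.08, Spib at -1.98, Aldoa at -1.66, Ldha at -1.04 and Pkm at -0.91. Enpep, a surface peptidase, was not called within the Rag2-null cells themselves. Nor were Aqp1 and Hvcn1, at log2 differences of 1.32 and -0.20, against -3.52 and 3.88 in Rag2-intact cells. Aqp1 was called higher in the fit of all 30 RNA libraries. Foxo1, Ebf1, Dntt, Erg, Blnk, Cd22 and Cd74 were also not called there as fitted. The difference of Tgm2 was not called with a pseudocount of 0.1 (2.90).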

How the results depend on the processing

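Of 3195 gene values under the alternatives, for 251 pairs of a gene and a comparison, 2874 kept their direction and their side of the threshold, 304 kept the direction and lost the call, 13 gained a call and 4 changed sign. The 4 are Ebf1 without the second control (-0.017) and Erg after quantile normalization (0.027), without the first control (0.37) and without the second deleted library (0.15), neither gene being called as reported. With 1 library left out, Ebf1 ranged from -0.017 to 0.59 and Erg from -0.455 to 0.37. The cause was not tested.

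The count of genes that rose was 1170 after quantile normalization and 1112 in the fit of the 4 Rag2-null libraries alone, which has fewer residual degrees of freedom. It ranged from 1205 to 1816 with 1 library left out. The count of genes that fell was 1376 after median-ratio scaling, 435 in the 4 libraries alone and 507 in the fit of all 30 RNA libraries, and ranged from 408 to 809 with 1 library left out. Of the reported calls, 1143 higher and 572 lower were shared after quantile normalization. Leaving out 1 library, the counts of differences from Rag2-intact cells ranged from 579 to 1039 (more positive) and from 252 to 530 (more negative), and those from c-Kit-high cells from 158 to 635 and from 106 to 320. Among genes named in the report, Phgdh also lost its call in the fit of all 30 libraries (-0.71), and Cdkn2a, Col1a1, Col1a2, Bgn and Ccl2 with a pseudocount of 0.1. In the fit of the 4 libraries alone the calls of Tmem59l, Heyl, Slc16a3, Pax5, Cd72, Cdkn2a, Cdkn1a, Tie1, Plvap, Egfl7, Eno3, Sema4a, Csf1r, Xrcc6, Vpreb2, Thy1, Lat, Tcf7, Rsph1, Mmrn1 and Pxn were among those lost. Where a library is left out, the lone sample of its group is assumed to vary like the other groups.

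No paired analysis was possible because the labels give the replicates no number or pairing, and the numbers used here follow accession order only. With 2 libraries a group, 7 residual degrees of freedom and no count table, small changes of low genes were not detectable, and the implied depth is an estimate.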

Other observations

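Some genes differed more between libraries of a group than between the groups. They were chosen after their values were seen. Phlda3, a p53 target, stood at 5.87 and 55.0 RPKM in the controls and at 37.2 and 38.2 RPKM in the deleted libraries. The p53 targets Ccng1 and Bbc3 were likewise higher in control 2 than in control 1, at 15.6 and 56.7 RPKM and at 5.74 and 23.8 RPKM. After deletion they stood at 19.5 and 20.0 RPKM and at 3.64 and 4.03 RPKM. Bbc3 was called lower (log2 difference -1.42), and its difference was -0.48 without control 2. Mdm2, another target of p53, stood at 17.9 and 21.9 RPKM in the controls. Ly6d, a surface marker of B-lineage specification, stood at 17.8 and 123 RPKM in the controls, and Klf2, a quiescence factor, at 2.30 and 16.1 RPKM. The metallothionein gene Mt2 was high in the second library of both groups, at 33.5 and 236 RPKM in controls and 28.8 and 154 RPKM in deleted libraries. Rgs10, a regulator of G-protein signals, stood at 82.0 and 4.44 RPKM in controls and 175 and 98.7 RPKM after deletion. Mki67, a proliferation marker, stood at 12.1 and 37.6 RPKM in the deleted libraries.

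Between the controls 335 genes lay more than 1 log2 unit apart, and between the deleted libraries 122. Plk2, a polo-like kinase, did not share this spread, at 0.726 and 0.992 RPKM in controls and 16.6 and 22.1 RPKM after deletion (log2 difference 3.44, limma adjusted p = 2.07e-07).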
